A study of Homo sapiens with 6 samples.

Results

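MYC and the proteins that pair with it or with its partners are encoded here by 10 genes, MYC, MYCL, MYCN, MAX, MXD1, MXD3, MXD4, MXI1, MNT and MLX. They were taken by symbol, as a list of the network, out of the 30051 genes of the count table. Of the 10, 9 were tested among 13341 genes that passed a filter on low counts, and MYCN was too low to be tested. RNA was sequenced from MDA-MB-231, an established human triple-negative breast cancer line, after 24 h with panobinostat at 50 nM, a drug that inhibits most histone deacetylases, or with its solvent DMSO. There were 3 panobinostat libraries, replicates 1, 2 and 4, and 3 DMSO libraries, replicates 1, 2 and 3. All cells were the same line, grown in DMEM/F-12 medium with 10% FBS. The submitters describe the repeats as independent, and the comparison asks which transcripts the drug changed.

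Levels are counts scaled to a library total of 1000000 (CPM), with the TMM factor of each library, given as mean ± SD with n = 3 per group. Log2 fold changes are panobinostat over DMSO, given as estimate ± SE. That SE is the absolute log2 fold change over the square root of edgeR's F statistic, because the test itself gives none. A gene was called at an adjusted p under 0.05 from edgeR's quasi-likelihood test, adjusted by the Benjamini-Hochberg method over all 13341 tested genes. Total counts were 5389638 to 15106148 in panobinostat libraries and 6514568 to 11996519 in DMSO libraries. Panobinostat replicate 4 stood apart. It lay at 15.3 on the leading principal component of log2 CPM, with 88.4% of the variance, beside the other panobinostat libraries at 59.3 and 60.0 and the DMSO libraries at −45.5 to −44.3. Values without it are given beside the results. Of 8 genes known for the line, VIM, CD44, FN1, AXL, EGFR and CAV1 were at 303 to 2870.0 CPM in panobinostat and 246 to 2567 CPM in DMSO, while S100A4 was at 9.44 CPM in panobinostat and 8.53 CPM in DMSO and SPARC was too low to be tested. Among these, 2 were called higher, 3 lower (AXL, EGFR and CAV1) and 2 were not called. The 8 luminal or epithelial genes that the line is known to lack or hold low summed to 27.4 to 29.2 CPM in panobinostat libraries and 29.0 to 30.4 CPM in DMSO libraries. CLDN7 was the highest of them, at 15.6 CPM in panobinostat and 15.5 CPM in DMSO, GATA3 was called lower, CLDN4 was called higher, and CDH1, the epithelial cadherin gene, had 0 counts in panobinostat and 1 in DMSO. Markers of leukocytes, endothelium and fibroblasts summed to 7.54 to 11.0 CPM in panobinostat libraries and 7.54 to 9.49 CPM in DMSO libraries. Only 2 of these markers were tested, with 1 called higher, the monocyte gene CD14, and 1 not called. Without panobinostat replicate 4, 1 was higher and 1 lower. CD14 was at 2.46 CPM in panobinostat and 0.523 CPM in DMSO. Its DMSO mean was below 1.46 CPM, the level that a library had to reach to count towards the filter. The part of CD14-expressing cells in the results was not tested.

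MYC, MYCL and MYCN are basic helix-loop-helix leucine zipper proteins that bind DNA only as dimers with MAX and activate genes of growth, metabolism and division through the E-box CACGTG. The MXD proteins, MXI1 and MNT also pair with MAX, bind the same E-box and recruit the SIN3 corepressor with its histone deacetylases, so they oppose MYC at shared sites. MLX is a MAX-like protein that joins this network by pairing with MXD1, MXD4 and MNT and with the nutrient sensors MondoA and ChREBP.

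Promoter windows were read from RefSeq on GRCh38.p14 for 9 of the 10 genes, all but MYC. Each window has 300 bases, 250 before and 50 after an annotated gene start, and the 9 genes have 12 windows between them. MYC had no window in the source read, so the counts of windows here leave it out. The E-box CACGTG, which reads the same on both strands, is shown because it is the site that dimers of these proteins bind. It occurs in 3 of the 12 windows, those of MXD4, MNT and MLX, and in 7.26% of all 35116 promoter windows of the same length. In the stretches printed here, 5′ to 3′ on the gene's strand, capitals mark the E-box, which begins 238 bases before the start of MXD4, 193 before that of MNT and 50 before that of MLX. They lie at chr4:2262322-2262359 on the minus strand, chr17:2401228-2401273 on the minus strand and chr17:42567030-42567075 on the plus strand.
MXD4: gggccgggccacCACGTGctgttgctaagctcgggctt
MNT: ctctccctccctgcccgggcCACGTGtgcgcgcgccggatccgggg
MLX: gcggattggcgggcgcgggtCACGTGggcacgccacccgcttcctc
The window of MYCL, at chr1:39901868-39902167 on the minus strand, and that of the outermost start of MXI1, at chr10:110207355-110207654 on the plus strand, are printed because these genes had the largest fold changes of the 9. Capitals there mark the GC box GGGCGG on either strand, read as CCGCCC on the other. It occurs in 11 of the 12 windows and in 45.0% of all promoter windows. Neither of these windows holds CACGTG, and a match in a window is a description of its letters.
MYCL: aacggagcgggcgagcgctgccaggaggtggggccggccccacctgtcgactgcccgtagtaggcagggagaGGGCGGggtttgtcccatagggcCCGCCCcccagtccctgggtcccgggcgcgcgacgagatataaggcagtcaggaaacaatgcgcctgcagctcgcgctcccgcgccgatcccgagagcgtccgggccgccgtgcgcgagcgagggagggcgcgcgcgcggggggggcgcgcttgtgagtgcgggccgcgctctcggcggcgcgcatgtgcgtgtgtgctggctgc
MXI1: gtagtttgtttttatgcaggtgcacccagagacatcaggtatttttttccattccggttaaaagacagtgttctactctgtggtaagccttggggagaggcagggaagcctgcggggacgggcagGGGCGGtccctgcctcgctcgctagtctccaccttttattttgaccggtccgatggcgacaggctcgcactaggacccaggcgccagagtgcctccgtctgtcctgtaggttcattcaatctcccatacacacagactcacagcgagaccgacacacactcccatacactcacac

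MYC, MYCL, MAX, MXI1 and MXD1 rose under panobinostat, and 0 of the 9 tested genes were called lower. The 5 called genes are 55.6% of the 9, beside 58.9% of all tested genes called in either direction, 30.2% higher and 28.6% lower. The share called is thus near that of the background. MYCL, among the 5, passed the filter only through its panobinostat libraries. The other 4, MXD4, MXD3, MNT and MLX, were not called. Without panobinostat replicate 4 the calls were 6 higher, 2 lower and 1 not called, beside 74.9% of all tested genes called, 37.7% higher and 37.2% lower. In 6 of the 9 genes the panobinostat libraries did not overlap the DMSO libraries, 5 of them higher and 1 lower, beside 69.0% of all tested genes, 35.0% higher and 34.0% lower. In RNA from a whole culture, more or fewer cells that express a gene and more or less RNA per cell cannot be told apart.

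**Figure D1:**
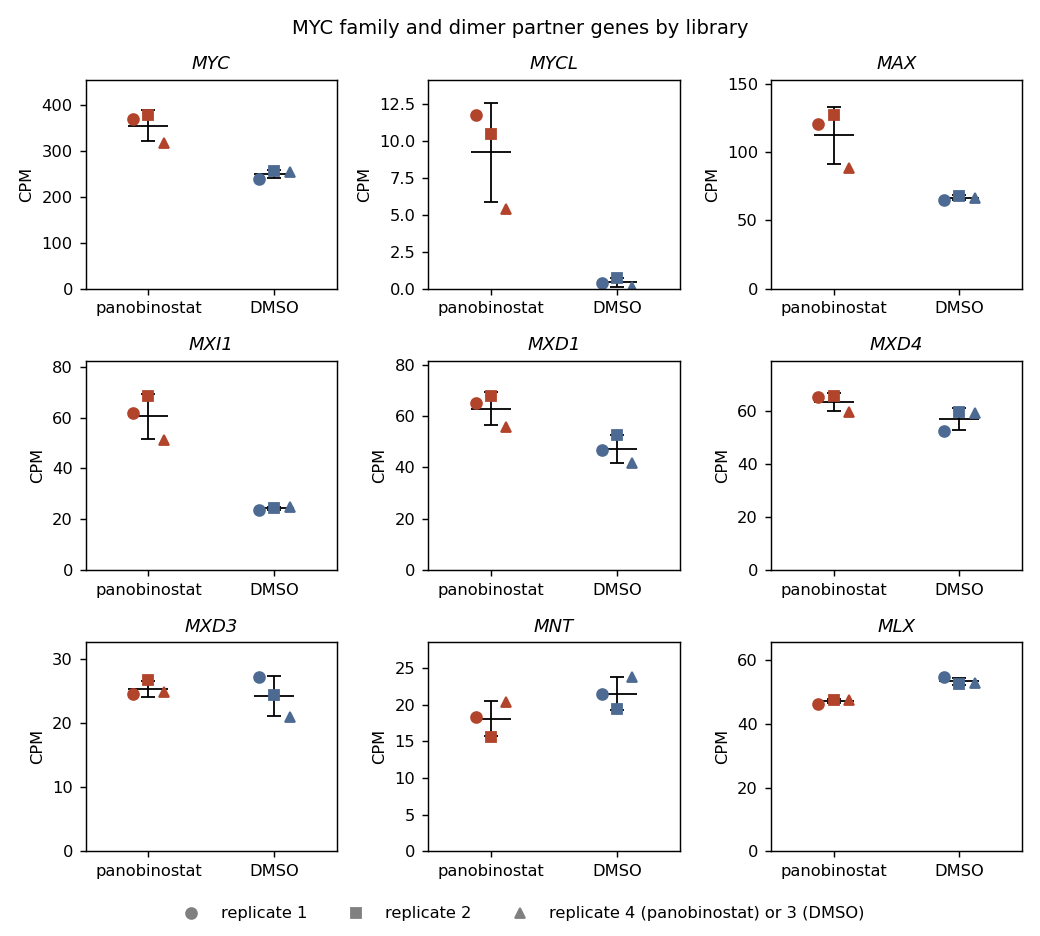
Level of each tested gene in CPM (vertical axes, linear from 0) in the 3 panobinostat libraries (red) and the 3 DMSO libraries (blue), with the group mean as a line, SD as error bars and symbols for the replicate number. MYC, MYCL, MAX, MXI1 and MXD1 sit higher in every panobinostat library than in any DMSO library, MLX sits lower, and MXD4, MXD3 and MNT overlap.

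MYC, the widely expressed member that is amplified or overexpressed in many breast tumours, had the highest level of the 10 per kilobase of exon and rose 1.42-fold. It lies on chromosome 8 from 127735434 to 127742951 on the plus strand (RefSeq on GRCh38.p14, as for all genes here). Its level was 368, 378 and 317 CPM in panobinostat replicates 1, 2 and 4, against 239, 255 and 255 CPM in DMSO replicates 1, 2 and 3. Every panobinostat library was above every DMSO library, with replicate 4 the lowest of its group. The means were 354 ± 33.0 CPM in panobinostat and 249.6 ± 9.43 CPM in DMSO (log2 fold change 0.51 ± 0.08, edgeR adjusted p = 0.00202). Among all tested genes, 76.9% had a lower log2 fold change. Leaving out panobinostat replicate 4 gave 0.58.

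MYCL, a member first found amplified in small cell lung cancer, was near absent in DMSO and rose 21.0-fold. It lies on chromosome 1 from 39895428 to 39901917 on the minus strand, and its promoter window is printed above. Its level was 11.8, 10.5 and 5.42 CPM in panobinostat replicates 1, 2 and 4, against 0.424, 0.712 and 0.155 CPM in DMSO replicates 1, 2 and 3. Every panobinostat library was above every DMSO library, with replicate 4 the lowest of its group. These levels rest on 179, 57 and 36 counts in panobinostat and 5, 5 and 1 in DMSO. The log2 fold change was 4.39 ± 0.47 (edgeR adjusted p = 0.000687), higher than that of 99.3% of tested genes. The ratio of summed counts per total was 22.9 with a 95% interval of 12.6 to 46.4, which covers counting error only. MYCL passed the filter only through its panobinostat libraries, so it could enter the test only by differing. The log2 fold change was 4.66 when panobinostat replicate 4 was left out.

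MYCN, the member known for its amplification in neuroblastoma, was not detected beyond 1 count. It had 1, 0 and 0 counts in panobinostat and 0 in each DMSO library. A floor of 3 counts, the most that a count of 0 allows, is 0.110 CPM over the panobinostat group and 0.119 CPM over the DMSO group. Both groups were under it, so no fold change is given. MYCN lies on chromosome 2 from 15940550 to 15947004 on the plus strand.

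MAX, the partner that MYC, MXD and MNT proteins share, rose 1.69-fold. It lies on chromosome 14 from 65006101 to 65102695 on the minus strand. Its level was 120.4, 127 and 88.6 CPM in panobinostat replicates 1, 2 and 4, against 64.8, 68.2 and 66.7 CPM in DMSO replicates 1, 2 and 3. The groups did not overlap, and the panobinostat libraries were spread more widely than the DMSO libraries, with replicate 4 the lowest. The means were 112 ± 20.7 CPM in panobinostat and 66.6 ± 1.68 CPM in DMSO (log2 fold change 0.75 ± 0.13, edgeR adjusted p = 0.00290). With panobinostat replicate 4 left out it was 0.89.

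MXI1, a MAX-binding repressor also known as MXD2, had the largest rise of the 5 antagonists, 2.49-fold. It lies on chromosome 10 from 110207605 to 110287365 on the plus strand, and the window of its outermost start is printed above. Its level was 62.0, 68.6 and 51.2 CPM in panobinostat replicates 1, 2 and 4, against 23.6, 24.5 and 25.0 CPM in DMSO replicates 1, 2 and 3. The lowest panobinostat library, replicate 4, was above the highest DMSO library. The means were 60.6 ± 8.78 CPM in panobinostat and 24.4 ± 0.676 CPM in DMSO (log2 fold change 1.31 ± 0.12, edgeR adjusted p = 0.000590), and 92.8% of tested genes had a lower log2 fold change. It was 1.40 without panobinostat replicate 4. MXI1 was one of the genes called and at least 2-fold higher, as was MYCL, beside 10.9% of all tested genes.

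MXD1, known as MAD1 and induced when many cell types differentiate, rose 1.33-fold. It lies on chromosome 2 from 69915109 to 69942945 on the plus strand. Its level was 65.0, 67.8 and 55.8 CPM in panobinostat replicates 1, 2 and 4, against 46.9, 52.5 and 41.9 CPM in DMSO replicates 1, 2 and 3. The groups did not overlap, with a narrow gap between panobinostat replicate 4 and DMSO replicate 2. The log2 fold change was 0.42 ± 0.11 (edgeR adjusted p = 0.0137), and 0.48 without panobinostat replicate 4. The call was lost, at an edgeR adjusted p of 0.0515 to 0.0584, without panobinostat replicate 1 or 2 or without DMSO replicate 1 or 3, and the p was 2.00e-09 to 0.0584 over its alternatives.

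MXD4, MXD3 and MNT were not called. MXD4, a repressor linked to differentiation that has the E-box stretch printed above, was at 65.3, 65.8 and 59.6 CPM in panobinostat, against 52.4, 59.8 and 59.4 CPM in DMSO. Panobinostat replicate 4 lay among the DMSO values, and the log2 fold change was 0.16 ± 0.09 (edgeR adjusted p = 0.153). MXD4 was called higher, at 0.21, without panobinostat replicate 4 (edgeR adjusted p = 0.00430, and 0.000412 to 0.492 over its alternatives). MXD3, the member known from dividing cells in S phase, was at 24.5, 26.8 and 24.8 CPM in panobinostat, against 27.2, 24.5 and 20.9 CPM in DMSO. Its groups overlapped throughout, with a log2 fold change of 0.06 ± 0.12 (edgeR adjusted p = 0.710). MNT, the broadly expressed antagonist that is made in resting and dividing cells alike, was at 18.3, 15.6 and 20.3 CPM in panobinostat, against 21.4, 19.4 and 23.7 CPM in DMSO. Its groups overlapped at panobinostat replicate 4 and DMSO replicate 2, with a log2 fold change of −0.24 ± 0.13 (edgeR adjusted p = 0.153). MNT was called lower, at −0.30, without panobinostat replicate 4 (edgeR adjusted p = 0.0140, and 0.0140 to 0.386 over its alternatives). MXD4 lies on chromosome 4 from 2247432 to 2262109, MXD3 on chromosome 5 from 177305499 to 177312752 and MNT on chromosome 17 from 2384073 to 2401060, each on the minus strand.

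MLX, the partner of MondoA and ChREBP in sensing glucose, was not called. It lies on chromosome 17 from 42567100 to 42573203 on the plus strand. Its level was 46.2, 47.2 and 47.4 CPM in panobinostat replicates 1, 2 and 4, against 54.5, 52.2 and 52.8 CPM in DMSO replicates 1, 2 and 3. All panobinostat libraries were below all DMSO libraries, and replicate 4 was not set apart from the other panobinostat libraries. The log2 fold change was −0.18 ± 0.07 (edgeR adjusted p = 0.0652). MLX was called lower, at −0.20, without panobinostat replicate 4 (edgeR adjusted p = 0.00813, and 0.00749 to 0.194 over its alternatives).

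The other helix-loop-helix genes of the network were set beside these. MLXIP encodes MondoA, which moves to the nucleus with MLX when glucose phosphates build up, and MLXIPL encodes ChREBP, its relative in liver and fat. MLXIP was at 207, 198 and 166 CPM in panobinostat, against 119.9, 133 and 124 CPM in DMSO, with no overlap (log2 fold change 0.60 ± 0.09, edgeR adjusted p = 0.00202). MLXIPL was at 7.69, 8.46 and 3.76 CPM in panobinostat, against 1.27, 0.569 and 1.24 CPM in DMSO, also with no overlap. Its log2 fold change was 2.64 ± 0.40 (edgeR adjusted p = 0.00178), and like MYCL it passed the filter only through its panobinostat libraries. MGA, a large MAX partner that acts in a repressive Polycomb complex, was at 64.0, 56.2 and 68.6 CPM in panobinostat, against 75.8, 77.7 and 86.0 CPM in DMSO. MGA fell by 0.34 ± 0.10 on the log2 scale (edgeR adjusted p = 0.0164), a call that was lost without DMSO replicate 3 (0.0727) or panobinostat replicate 2 (0.0543), with p between 1.83e-06 and 0.0727 over all alternatives. MLX, beside these, had 47.0 ± 0.647 CPM in panobinostat and 53.2 ± 1.18 CPM in DMSO.

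**Figure D2:**
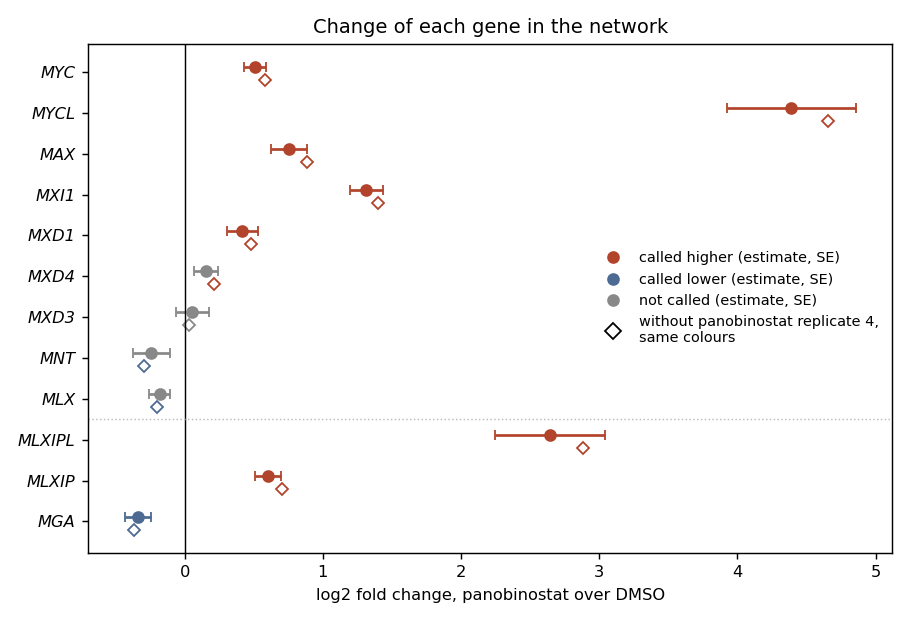
Log2 fold change of panobinostat over DMSO (horizontal axis) for each tested gene, with its SE as the bar, and the same without panobinostat replicate 4 as an open diamond, each coloured by its own call. MYCL and MLXIPL lie farthest to the right at 4.39 and 2.64, MXI1 follows at 1.31, MGA is called lower at −0.34, and MXD4, MNT and MLX are called only without panobinostat replicate 4.

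Panobinostat replicate 4 showed the same direction of change as the other panobinostat libraries for all 9 tested genes, to different degrees. Set against the mean change of panobinostat replicates 1 and 2 over DMSO on the log2 scale, its change was 59.3% for MYC, 46.1% for MAX, 75.4% for MXI1, 79.1% for MYCL and 50.1% for MXD1. It was 88.7% for MLX, the highest of the 9, and 22.7% for MNT, the lowest.

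Per kilobase of exon, MYC stood first and MAX second in both groups. MYC was at 118 ± 11.0 CPM per kb in panobinostat and 83.2 ± 3.14 in DMSO, and MAX at 25.3 ± 4.66 CPM per kb in panobinostat and 15.0 ± 0.379 in DMSO. In panobinostat libraries the order of levels went on with MXI1, MLX, MXD1, MXD4, MXD3, MNT, MYCL and MYCN. The library values overlapped between MXI1 and MLX, between MXD1 and MXD4 and between MNT and MYCL. Within a library, MXD1 was above MXD4 in each panobinostat library. The order of MXI1 and MLX, and that of MNT and MYCL, changed between panobinostat libraries. In DMSO libraries the order after MAX was MLX, MXD4, MXD1, MXI1, MXD3, MNT, MYCL and MYCN. Values overlapped there between MXD4 and MXD1 and between MXI1 and MXD3, although MXD4 was above MXD1 in each DMSO library. MXI1 thus came next after MAX in panobinostat, at 13.1 ± 1.91 CPM per kb, and after MLX, MXD4 and MXD1 in DMSO, at 5.29 ± 0.147 CPM per kb. MYCL was next to last in both groups, at 1.82 ± 0.663 CPM per kb in panobinostat and 0.0850 ± 0.0550 in DMSO. With the length of the longest transcript in place of all exons, MLX stood above MXI1 in panobinostat, at 18.2 CPM per kb against 17.5. MXD3 then stood higher, at 11.1 CPM per kb in panobinostat and 10.6 in DMSO, above MXD1 at 8.43 and MXI1 at 7.02 in DMSO.

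The balance of MYC against its partners was read as ratios of CPM per kb within each library, and no test was made on them. MYC over MAX was 4.51, 4.39 and 5.28 in panobinostat replicates 1, 2 and 4, against 5.44, 5.53 and 5.63 in DMSO replicates 1, 2 and 3. Each panobinostat library had less MYC per MAX than each DMSO library, with replicate 4 close to the DMSO values. MYC over MXI1 was 9.12, 8.47 and 9.50 in panobinostat, against 15.5, 16.0 and 15.6 in DMSO. Here replicate 4 lay with its own group. MYC over the sum of MXI1, MXD1, MXD4, MXD3 and MNT was 3.08, 3.01 and 2.97 in panobinostat, against 2.87, 2.93 and 3.12 in DMSO. These values overlapped, with means of 3.02 ± 0.0543 in panobinostat and 2.97 ± 0.127 in DMSO. MYCL made up 1.49 ± 0.441% of the summed MYC, MYCL and MYCN transcripts per kb in panobinostat and 0.102 ± 0.0644% in DMSO.

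The make-up of the antagonist transcripts differed between the groups. MXI1 held 33.8, 35.5 and 31.3% of the 5 antagonists in panobinostat, against 18.5, 18.3 and 19.9% in DMSO, which placed it first in every panobinostat library. The shares of the others were lower in panobinostat or overlapped. MXD4 held 23.1 ± 0.778% in panobinostat and 29.0 ± 2.07% in DMSO, MXD3 12.7 ± 0.835% in panobinostat and 16.8 ± 2.10% in DMSO, and MNT 5.37 ± 1.15% in panobinostat and 8.84 ± 1.18% in DMSO, each without overlap. MXD1 held 25.3 ± 0.493% in panobinostat and 26.5 ± 2.14% in DMSO, with overlap. Over MAX, MXI1 was the one antagonist of the 5 with a higher mean ratio in panobinostat, at 0.523 ± 0.0304 against 0.352 ± 0.00746 in DMSO. MLX over MLXIP was 0.813 ± 0.107 in panobinostat and 1.39 ± 0.0984 in DMSO. Shares of a sum depend on each other, so a higher share of MXI1 lowers those of the rest. Of the 16 ratios and shares computed, 13 did not overlap between the groups, the same 13 with the longest transcript as length. Among single tested genes 69.0% did not overlap, and no such share was computed for ratios of other genes. The 16 also share genes and a common sum, so they are not separate and their count is no result of its own.

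**Figure D3:**
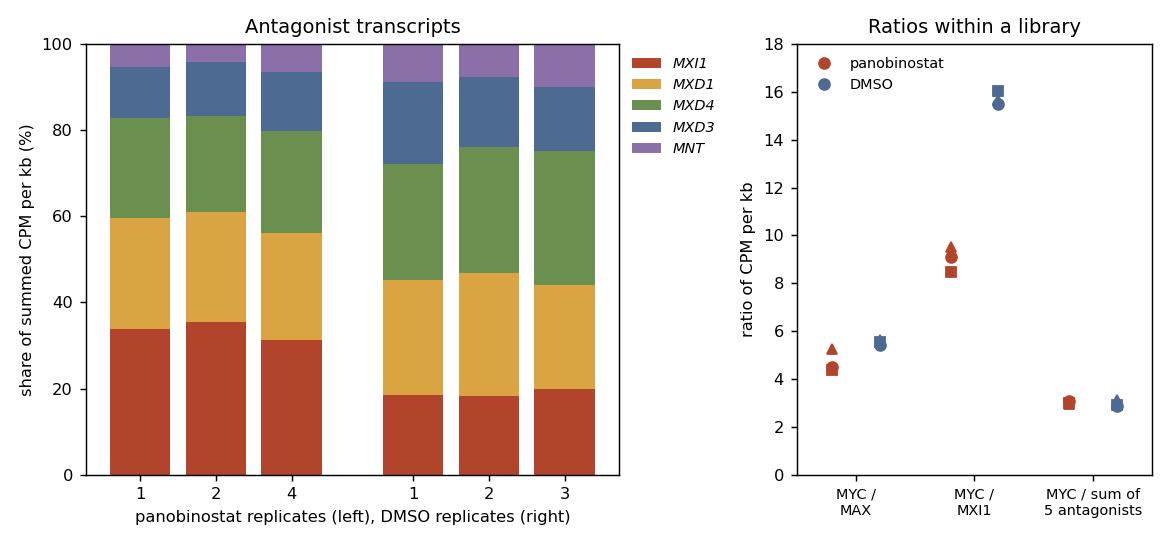
Left, share of MXI1, MXD1, MXD4, MXD3 and MNT in their summed CPM per kb (vertical axis, percent) for each panobinostat library and then each DMSO library. Right, ratios of CPM per kb in panobinostat (red) and DMSO (blue), with circles for replicate 1, squares for replicate 2 and triangles for replicate 4 of panobinostat or 3 of DMSO: MXI1 holds 31.3 to 35.5% in panobinostat and 18.3 to 19.9% in DMSO, and MYC over the 5 antagonists overlaps between the groups.

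Genes that act with, on or downstream of these proteins were described by lists, of which 153 genes were tested. Of these, 33 were called higher, 80 lower and 40 were not called, with a median log2 fold change of −0.26, beside 0.00 over all tested genes. Of all tested genes, 58.9% were called, 30.2% higher and 28.6% lower, and the list counts are to be read against these shares. No test was made on any list as a whole. Without panobinostat replicate 4, where 37.7% of all tested genes were higher and 37.2% lower, the genes higher and lower were 2 and 12 for MYC cofactors, 8 and 3 for SIN3 subunits, 4 and 8 for MYC turnover and 3 and 9 for MYC regulators. They were 7 and 40 for activated growth targets, 3 and 16 for textbook targets, 6 and 1 for repressed targets and 5 and 1 for MLX targets.

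Among the coactivators and chromatin partners that MYC recruits, 12 of 14 tested genes fell, 1 rose and 1 was not called, with a median of −0.50, beside 28.6% of all tested genes lower and 30.2% higher. HCFC1, which helps MYC bind chromatin (−1.60 ± 0.41, and −2.37 without panobinostat replicate 4), KAT5, the TIP60 acetyltransferase (−1.25 ± 0.19), and the acetyltransferase genes CREBBP (−1.09 ± 0.21) and EP300 (−0.80 ± 0.17) had the largest falls. The helicase gene RUVBL2 rose by 0.23 ± 0.07, a call lost without any one library other than panobinostat replicate 4, and its partner RUVBL1 was not called (0.07 ± 0.07). The number lower was 7 without DMSO replicate 2 or without panobinostat replicate 2. The SIN3 corepressor subunits that MXD, MXI1 and MNT recruit had 8 of 14 higher, 2 lower and 4 not called, with a median of 0.24, beside the same 30.2% higher and 28.6% lower. BRMS1 (0.77 ± 0.11), ARID4A (0.68 ± 0.09), ING1 (0.51 ± 0.15) and the scaffold gene SIN3B (0.39 ± 0.08) rose. RBBP4 (−0.59 ± 0.10) and RBBP7 (−0.21 ± 0.07), the histone-binding subunits, fell. The values were −0.14 ± 0.07 for SIN3A, 0.03 ± 0.06 for the deacetylase gene HDAC2, −0.02 ± 0.08 for SUDS3 and −0.06 ± 0.11 for ING2, none called. The number of subunits higher was 5 without DMSO replicate 1, the call of ING1 was lost without panobinostat replicate 1 or 2 or DMSO replicate 1 or 3, and that of RBBP7 without any one library other than panobinostat replicate 4.

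Of 17 genes that control turnover of the MYC protein, 2 rose, 8 fell and 7 were not called, with a median of −0.10. In all 58.8% of them were called, beside 58.9% of all tested genes, so the share called is that of the background. The ubiquitin ligase genes STUB1 (0.43 ± 0.11) and FBXW7 (0.27 ± 0.10) rose. The call of STUB1 was lost without panobinostat replicate 1 or DMSO replicate 1 or 3, and that of FBXW7 without any one library other than panobinostat replicate 4. The number higher was 0 to 1 in those sets and 4 without panobinostat replicate 4. AURKA, a mitotic kinase that shields MYC proteins from degradation (−1.20 ± 0.25), the pseudokinase gene TRIB3 (−1.19 ± 0.21), the ligase gene HUWE1 (−0.61 ± 0.11) and CIP2A, an inhibitor of the phosphatase PP2A (−0.59 ± 0.15), fell. Of 15 tested regulators of MYC transcription or mRNA, 3 rose, 9 fell and 3 were not called, with a median of −0.43, beside 30.2% of all tested genes higher and 28.6% lower. ZFP36, an mRNA decay factor (1.46 ± 0.19), the repressor gene BCL6 (0.99 ± 0.13) and STAT3 (0.46 ± 0.08) rose. LEF1, a nuclear effector of Wnt signalling (−1.27 ± 0.32), FUBP1, which binds the far upstream element of MYC (−0.87 ± 0.19), FOXM1 (−0.85 ± 0.14) and CTCF, an insulator protein (−0.84 ± 0.19), fell. PUF60 (−0.27 ± 0.41), ELAVL1 (0.06 ± 0.06) and ZFP36L1 (0.03 ± 0.07) were not called. PVT1, the long non-coding gene beside MYC, was at 17.5 ± 2.64 CPM in panobinostat and 12.9 ± 1.58 CPM in DMSO (0.44 ± 0.16, edgeR adjusted p = 0.0394). Its call was lost without panobinostat replicate 1, at 0.29, and without panobinostat replicate 2 or DMSO replicate 2 or 3.

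Genes that MYC is known to activate fell more often than they rose. Of 55 tested targets that MYC activates, mostly of ribosome biogenesis and growth, 36 fell, 4 rose and 15 were not called, with a median of −0.40, beside 28.6% of all tested genes lower and 30.2% higher. The kinase genes of mitosis and centriole assembly PLK1 (−1.29 ± 0.26) and PLK4 (−1.16 ± 0.23), PPRC1, a coactivator of mitochondrial genes (−1.13 ± 0.26), and UTP20 of the small ribosomal subunit processome (−1.11 ± 0.27) fell. The folate transporter gene SLC19A1 (1.16 ± 0.30), which passed the filter only through panobinostat libraries, the ribosome biogenesis genes RRP9 (0.58 ± 0.10) and RRP12 (0.37 ± 0.07) and the hexokinase gene HK2 (0.25 ± 0.06) rose. The number higher was 7 without panobinostat replicate 4. Of 21 textbook single-gene targets, 11 fell, 3 rose and 7 were not called, with a median of −0.29, beside the same shares. UBTF, which drives ribosomal RNA transcription (−1.41 ± 0.33, and −2.002 without panobinostat replicate 4), the phosphatase gene CDC25A (−1.10 ± 0.24), E2F1 (−0.75 ± 0.15) and NCL, the nucleolin gene (−0.71 ± 0.14), fell. ODC1, the ornithine decarboxylase gene of polyamine synthesis, was at 997 ± 223 CPM in panobinostat and 389 ± 17.3 CPM in DMSO (1.36 ± 0.15). CCND2, the cyclin D2 gene (1.67 ± 0.26), and SLC2A1, a glucose transporter gene (0.37 ± 0.09), also rose.

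Genes that MYC is known to repress had 5 of 8 tested members higher, 1 lower and 2 not called, with a median of 1.30, beside 30.2% of all tested genes higher and 28.6% lower. The list holds 12 genes with a row of counts, and CEBPA, at 2.91 ± 1.13 CPM in panobinostat and 0.387 ± 0.0664 CPM in DMSO (2.85 ± 0.43), passed the filter only through panobinostat libraries. CDKN1A, which encodes the p21 inhibitor of cyclin-dependent kinases, was at 305 ± 76.2 CPM in panobinostat and 102 ± 1.01 CPM in DMSO (1.58 ± 0.17). NDRG1 (1.57 ± 0.17) and CLU, the clusterin gene (1.52 ± 0.16), rose as well. CDKN1B, which encodes p27, fell by 0.78 ± 0.17, and HBP1 (−0.04 ± 0.11) and RRAGD (0.27 ± 0.14) were not called. Of the 6 tested targets of MLX with MondoA or ChREBP, 4 rose, 1 fell and 1 was not called, with a median of 0.59, beside those shares of all tested genes. ARRDC4 (1.59 ± 0.18) and TXNIP, a brake on glucose uptake (1.04 ± 0.13), are the genes best known as MondoA targets. TXNIP was at 445 ± 82.2 CPM in panobinostat and 216 ± 7.82 CPM in DMSO. The lipid synthesis genes ACACB (0.68 ± 0.15) and FASN (0.51 ± 0.09) also rose, KLF10 fell by 0.59 ± 0.13 and ARRDC3 was not called (0.12 ± 0.09).

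**Figure D4:**
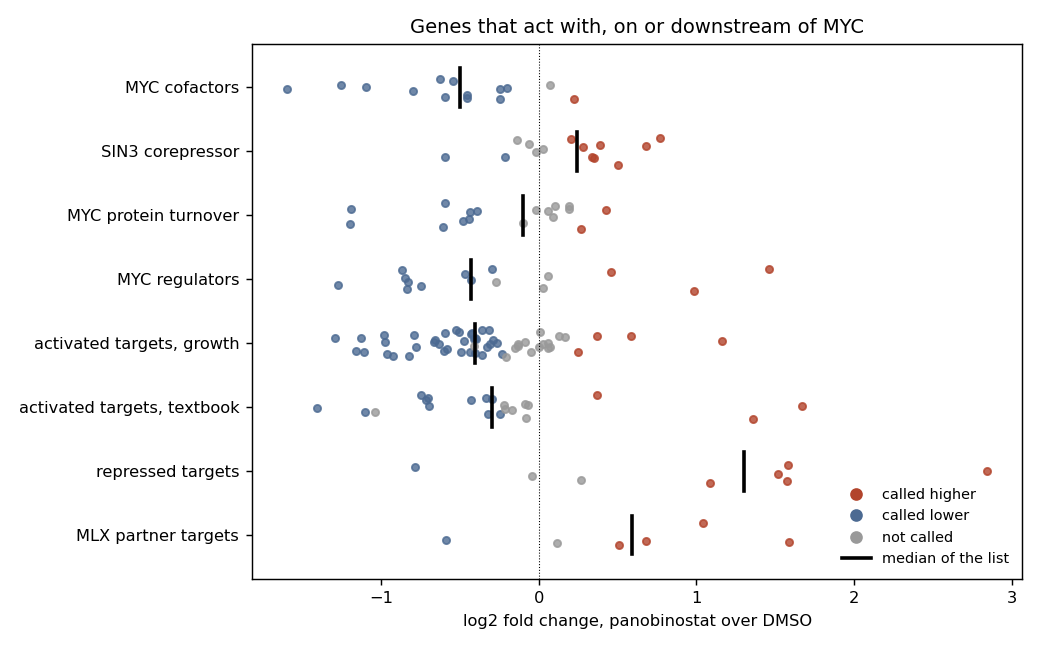
Log2 fold change of panobinostat over DMSO (horizontal axis) of each tested gene in 8 lists of the pathway, red where called higher, blue where called lower and grey where not called, with the median of the list as a black bar. The medians run from −0.50 for MYC cofactors to 1.30 for genes that MYC is known to repress.

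The genes whose levels followed MYC most closely over the 6 libraries were IER5, an immediate early response gene, NAB2, a corepressor of EGR proteins, and SQSTM1, the autophagy receptor p62. They were the 3 with the highest Pearson r of log2 CPM with MYC among tested genes at 10 CPM or more, each at r = 1.00, as a description over libraries that share the same treatment contrast. IER5 was at 191 CPM in panobinostat and 124 CPM in DMSO (log2 fold change 0.63 ± 0.10), and NAB2 was at 22.1 CPM in panobinostat and 15.6 CPM in DMSO (0.51 ± 0.11). SQSTM1 was at 319 CPM in panobinostat and 277 CPM in DMSO (0.21 ± 0.06). They were chosen for following MYC over the same contrast, so that they were higher follows from the choice and is no separate result. The call of SQSTM1 was lost without panobinostat replicate 1 or 2, without DMSO replicate 1 or 3 and with no filter (edgeR adjusted p = 0.0531 to 0.212).

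Several of the 10 genes overlap neighbours on the genome, and whether reads were counted by strand was not given in the sources used here, so their reads may not be fully separate. Overlaps were read from GENCODE gene positions, not the RefSeq positions given above. In GENCODE MXD1, on the plus strand, begins at 69897688 and MXD3, on the minus strand, ends at 177301461, so both reach farther than in RefSeq. MAX overlaps FNTB on the other strand, which was not called (−0.10 ± 0.14). MXD1 overlaps SNRNP27 on the same strand, which was not called (−0.04 ± 0.12). MXD3 overlaps RAB24 on the same strand, which rose (0.67 ± 0.17, a call lost without DMSO replicate 1), and PRELID1 on the other strand, which fell (−0.20 ± 0.08, a call lost without any one library other than panobinostat replicate 4). MLX overlaps PSMC3IP on the other strand, which fell (−0.62 ± 0.16). An antisense gene of MYCL, MYCL-AS1, had 0 counts in panobinostat and 2 in DMSO.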

How the data were processed

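The authors deposited 1 table of counts per gene, not normalised, for 6 poly(A) RNA-seq libraries from a stranded kit, per the labels' protocols. Its build is GRCh38.p14, per the submitters' processing notes. The aligner was not given in the sources used here, nor were the annotation and counting settings. A comparison by the authors stands in the deposited table too, as a mean signal, log2 fold changes with SE, a score and p-values. It draws on further libraries, which were not analysed here, by a tool that was not given in the sources used here.

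Counts were matched to symbols by Ensembl identifier and tested in edgeR 4.0.16 by quasi-likelihood (R 4.3.3, TMM, robust fit, filterByExpr, treatment as the only term). The filter kept 13341 genes and left out 16710. An unadjusted p under 0.05 was reached by 8519 genes. CPM are counts over the total of tested genes times its TMM factor, scaled to 1000000. CPM per kb use the union of exons of GENCODE release 29. Motifs were searched in RefSeq promoter windows. The fit was tested on simulated counts with few changed genes, the same dispersion for all genes and no library set apart. These data differ from that setting, so the simulation does not bear on the calls given here.

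The 10 genes and all lists were chosen with earlier results of these data known. In each list, up to 4 called genes per direction of at least 1 CPM were named by size of change, with all genes not called or going against the rest where these were 5 or fewer. Alternatives were other scalings, no filter, DESeq2 1.42.0, limma 3.58.1, quality weights, a replicate block and leaving out each library. Exact tests of 3 against 3 libraries cannot go below p = 0.1 and were not used.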

Additional observations from a re-analysis of the deposited data

How the results depend on the processing

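MYC, MYCL, MAX and MXI1 kept their direction and call under all 15 alternatives, with adjusted p up to 0.0165 for MYC, 0.0102 for MYCL, 0.0199 for MAX and 0.0100 for MXI1 (edgeR, limma or DESeq2). For MYCL this carries the limit given above, that it passed the filter only through its panobinostat libraries. Most alternatives used the same filtered genes. MXD1 was called in 11 of 15. Of the 10 genes, 5 were called in all libraries, 8 with library quality weights, 8 with the replicate number as a block, and 4 to 8 when each library was left out in turn, the 8 without panobinostat replicate 4. With quality weights MXD4 was 0.20, MNT −0.30 and MLX −0.19 on the log2 scale, each called. Under the block they were 0.25, −0.25 and −0.21, each called. Only numbers 1 and 2 occur in both groups, and the labels do not say what a number marks. DMSO replicate 3 and panobinostat replicate 4 are each alone in their number, so under the block they add nothing to the contrast. The block thus also sets panobinostat replicate 4 aside and is no check separate from leaving it out. The lowest adjusted p over alternatives given above for MXD1, MXD4, MLX and MGA come from the block. The deviations of same-numbered libraries from their group means had correlations of 0.0514 and 0.00807 across 13341 genes. Panobinostat replicate 4, which stood apart, shapes the mean of its group, so these values cannot tell whether same-numbered libraries share more than a number. Under the block 9981 genes were called in all, against 7853 without it and 9993 without panobinostat replicate 4. With quality weights 9956 were called. Quality weights are lower for libraries that vary more, so they too are not shown to be a check separate from leaving out panobinostat replicate 4. MXD3 changed sign under the block, with no filter and without DMSO replicate 3, and was never called. The sum of called genes in the pathway lists was 113 and stayed between 92 and 131. Over 81 named genes and their alternatives, 1137 of 1215 values kept their call, 59 lost and 19 gained one, and no called value reversed. PRELID1 was also not called with upper-quartile factors, with library size only and with DESeq2, and PUF60 was called lower under the block, at −0.81. Without the filter PVT1, RUVBL2, FBXW7, HCFC1, AURKA, HK2, PLK1, PPRC1, UTP20, UBTF and SQSTM1 were not called, and the cause was not tested. Depth limits MYCN, and MYCL, CEBPA and MLXIPL in DMSO.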

Other observations

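The authors' deposited table gives its own log2 fold changes for the 10 genes, from a comparison that includes libraries not analysed here. Their direction was taken as panobinostat over DMSO from their signs against the counts used here. A shared direction is therefore no separate result. In the authors' deposited table MXI1 was at 1.09, MAX at 0.60, MYC at 0.41 and MXD1 at 0.34. In the authors' deposited table MYCL was at 2.27, where the 6 libraries used here gave 4.39. The authors' deposited table has an adjusted p of 0.0269 for MYCL and 0.000305 for MYC. For MXD4 the authors' deposited table has 0.13, for MXD3 0.02, for MNT −0.20 and for MLX −0.16, with adjusted p of 0.135 to 0.926. MYCN has 0.54 and no adjusted p in the authors' deposited table.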
